A study of Homo sapiens with 9 samples.

Results

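Eukaryotic cells copy their genome once in each S phase. In G1, the origin recognition complex with CDC6 and CDT1 loads the hexameric MCM2-7 helicase onto origins, which is called licensing. At the start of S phase the loaded helicase is activated by MCM10, CDC45 and the GINS complex, and the polymerases, the PCNA clamp and its loader then copy both strands from deoxynucleotides that ribonucleotide reductase, thymidylate synthase and thymidine kinase help to supply. Many of these genes are known targets of the E2F transcription factors, whose activity rises at the passage from G1 to S phase, so that their mRNAs are abundant in dividing cells and low in resting cells.

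The expression of 50 such genes was examined by RNA sequencing in MDA-MB-231, a triple-negative line of human breast cancer cells in wide use. The genes were taken by symbol from a list of replication and S-phase genes, which was drawn up with earlier results of these data known, and were arranged by what their products do into 9 roles. All 50 were found among the 58735 genes of the deposited tables, and all 50 passed the filter on low counts that left 16188 genes for testing. Each of 3 groups had 3 libraries. Vehicle cells were treated with DMSO. Erastin-R cells were treated with erastin, which blocks the cystine importer system xc-, and RSL3-R cells with RSL3, which inhibits the lipid peroxide-reducing enzyme GPX4. Both agents induce ferroptosis, an iron-dependent cell death by lipid peroxidation, and the study sequenced cells that had outlived rising concentrations of either agent. These are survivors of 1 cell line, and the doses and times behind the libraries were not used here. The sources used here do not say that the 3 libraries of a group came from separate cultures, so p-values measure the spread between these libraries, which may be technical.

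Total counts ranged from 15405102 to 17273464 per library, and the biological coefficient of variation was 8.56%. The 6 markers of this mesenchymal-like line were all expressed in every group, at mean FPKM values of 23.2 or more. Of these, CAV1 fell most, by 1.14 and 0.86 on the log2 scale in erastin-R and RSL3-R cells, while AXL and EGFR rose. Of the 7 luminal and epithelial markers, the hormone receptor genes ESR1 and PGR lay at or below 0.0392 FPKM. EPCAM, CDH1 and GATA3 lay at or below 1.78 FPKM. KRT18 was at 51.9, 23.7 and 52.8 FPKM in vehicle, erastin-R and RSL3-R cells, and ERBB2 at 8.95, 7.82 and 5.96. KRT18 fell by 1.12 on the log2 scale in erastin-R cells, and CDH1 rose by 1.58 in RSL3-R cells. Markers of leukocytes, endothelium and fibroblasts, 11 genes in all, stayed under 2 FPKM in every group, the highest being 1.64. The highest group mean was 0.309 FPKM for the leukocyte markers (LYZ), 1.64 for the endothelial markers (PECAM1) and 1.57 for the fibroblast markers (PDGFRB), followed by COL1A1 with 1.02, and CD3E and COL1A2 were at 0 in at least 1 group. PECAM1 fell by 2.47 on the log2 scale in erastin-R cells (edgeR adjusted p = 8.28e-08). In RSL3-R cells PTPRC, at 0.149 FPKM or less, rose by 1.67 (adjusted p = 0.00818) and PDGFRB by 0.69 (adjusted p = 0.00039). COL1A1 and PECAM1 rose there by 0.39 and 0.36 (adjusted p = 0.0469 for each). DCN, at 0.0719 FPKM or less, fell by 2.86 in erastin-R (adjusted p = 0.00064) and by 2.14 in RSL3-R cells (adjusted p = 0.0031). The summed level of the leukocyte markers was 0.803 to 1.42 CPM in vehicle, 0.318 to 1.19 in erastin-R and 1.81 to 1.99 in RSL3-R libraries, that of endothelial markers 9.68 to 11.1, 1.65 to 2.38 and 11.7 to 14.2 CPM, and that of fibroblast markers 14.6 to 17.2, 13.6 to 17.3 and 20.6 to 22.9 CPM. The 7 luminal and epithelial markers summed to 262 to 279, 154 to 175 and 228 to 254 CPM, and mitochondrial genes took 8.41% ± 0.486, 6.45% ± 1.31 and 9.92% ± 0.349 of all counts in the same order (SD, n = 3). The part of these differences in the results below was not tested. Erastin-R replicate 1 stood apart from the other erastin-R libraries: over all genes it differed from them by 23.3 to 23.9 in chi-square per gene, where the other pairs of a group differed by 2.43 to 5.28 and pairs of different groups by 41.8 to 76.8. Among the 50 genes it was the highest of the 3 erastin-R libraries for 28 and the lowest for 16. Calls of the 50 genes that changed without it are given below with and without it.

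Replication genes took up a smaller part of the mRNA in both survivor groups. Of all counts, 0.442% ± 0.00667 (SD, n = 3) fell on the 50 genes in vehicle cells, 0.269% ± 0.00342 for erastin-R and 0.223% ± 0.00112 for RSL3-R, without overlap between the groups. By FPKM, which allows for gene length, the median level of the 50 genes was 15.6 in vehicle, 8.75 in erastin-R and 7.31 in RSL3-R libraries. The median coefficient of variation between the 3 libraries of a group was 4.09%, 8.58% and 5.45%. In erastin-R against vehicle cells, 44 of the 50 genes fell (edgeR quasi-likelihood test, adjusted p under 0.05), none rose and 6 did not pass the test; over all genes tested, 26.8% were called lower and 27.1% higher. Without erastin-R replicate 1, 47 fell. In RSL3-R cells 49 of 50 fell, none rose and only RFC1 did not pass, where 24.9% of all genes were called lower and 23.8% higher. At an unadjusted p under 0.05 no gene of the 50 was higher in either comparison, and neither DESeq2 nor limma called one higher. A fall of at least 2-fold was called for 17 genes in erastin-R cells, against 6.66% of all genes lower and 6.7% higher by that much, and for 32 in RSL3-R cells, against 4.08% lower and 6.02% higher. The median of the 50 log2 fold changes was -0.76 for erastin-R and -1.08 for RSL3-R, a median fall of 41.0% and 52.7%, while the median of all genes tested was -0.0042 and 0.0052. The 3 treated libraries lay below the 3 vehicle libraries without overlap for 44 genes of erastin-R and 49 of RSL3-R, as did 29.1% and 31.4% of all genes. They lay above them without overlap for 0 and 1 of the 50 genes, against 28.7% and 30.4% of all genes. Both comparisons use the same vehicle libraries. In such bulk RNA, fewer cells in S phase and less of these mRNAs per cell cannot be told apart.

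**Figure D1:**
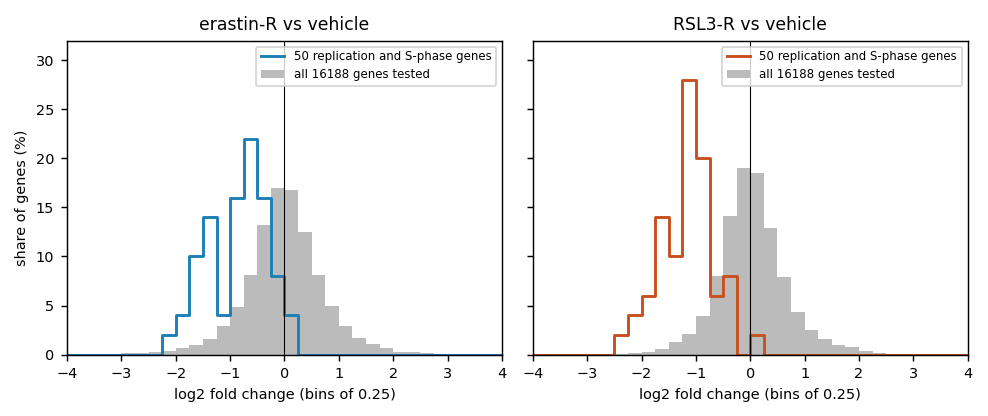
Share of genes (vertical axis, percent) by log2 fold change against vehicle (horizontal axis, bins of 0.25) for the 50 replication and S-phase genes (coloured outline) and all 16188 genes tested (grey). The 50 genes lie to the left of the grey distribution in both panels, with medians of -0.76 for erastin-R and -1.08 for RSL3-R.

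**Figure D2:**
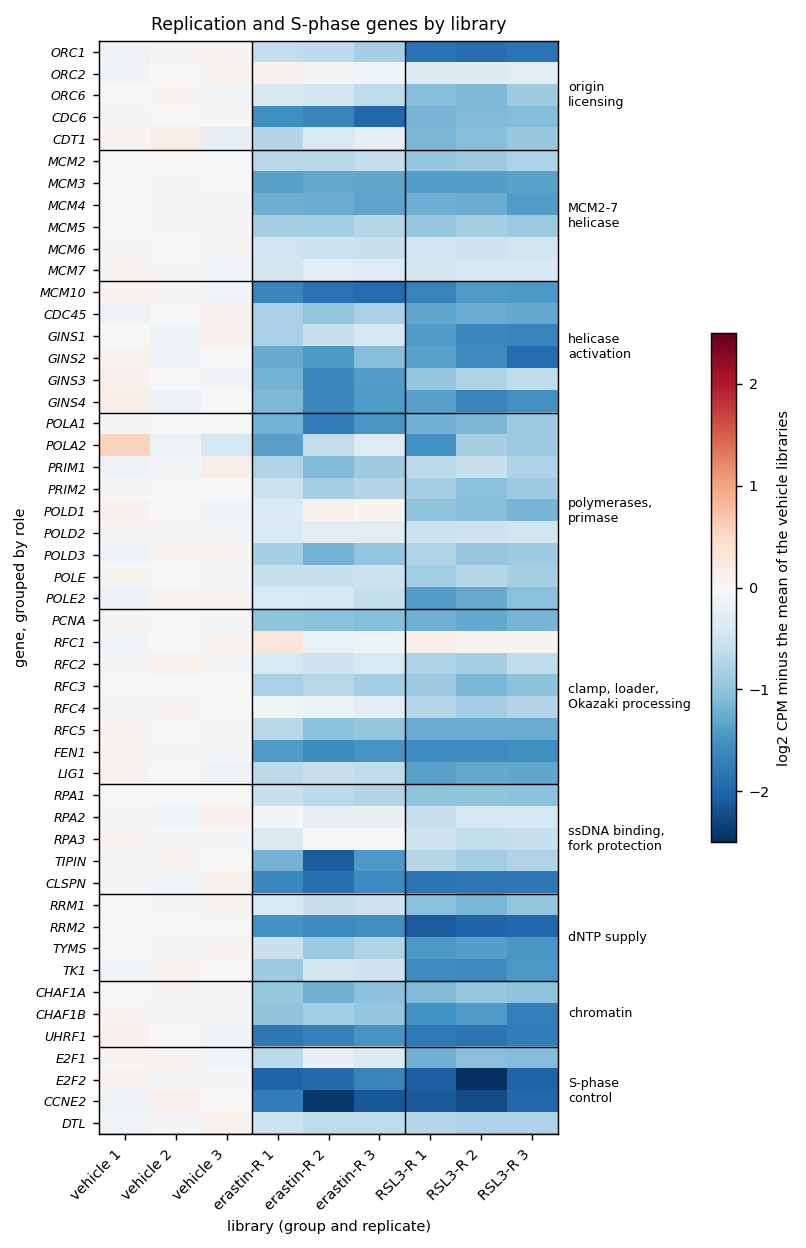
Log2 CPM of each of the 50 genes (rows, grouped by role) in each of the 9 libraries (columns), minus the mean of the 3 vehicle libraries, with blue for lower and red for higher values. The erastin-R and RSL3-R columns are blue for nearly all genes, and the RFC1 row is not.

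The E2F letters were searched in the promoters of these genes, because E2F1 and E2F2 are among them and the others include known E2F targets. RefSeq promoters (GRCh38.p14), from 250 bases before to 50 after the start, were given for 43 of the 50 genes, with 55 promoters in all, since 9 genes have more than 1. The letters TTTCCCGC, TTTCGCGC, TTTGCCGC or TTTGGCGC stood on either strand in a promoter of 23 of the 43 genes (53.5%), and in 6.51% of the 10791 tested genes with a promoter and 3.99% of all 27305 genes of the promoter table. By promoter, 24 of 55 (43.6%) held a match, against 4.78% of the 15660 promoters of tested genes and 3.31% of all 35116 promoters of the same length. Of 32 matches, where overlapping matches on the 2 strands count as 2, 25 lay within 100 bases before to 50 bases after the start. The letters TTTGAA or TTCGAA, known as the cell cycle genes homology region (CHR) of genes expressed later in the cycle, stood in promoters of 2 of the 43 genes (4.65%) and of 15.5% of the tested genes. A match is a description of the letters and does not show binding, and no share was adjusted for base composition. The stretches around E2F letters are shown for 6 of the genes whose levels are given below, each printed 5′ to 3′ on the strand of the gene from 10 bases before the match, with the match in capitals.

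E2F2 (chr1:23531234-23531285, minus strand, from base -52 to -1 before the start): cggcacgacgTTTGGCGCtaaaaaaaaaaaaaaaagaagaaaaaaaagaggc
GINS2 (chr16:85688955-85688995, minus strand, -41 to -1): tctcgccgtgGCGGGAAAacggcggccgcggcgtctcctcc
MCM3 (chr6:52284867-52284926, minus strand, -184 to -125): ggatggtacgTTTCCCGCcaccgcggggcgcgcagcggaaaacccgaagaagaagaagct
POLA1 (chrX:24693771-24693830, plus strand, -147 to -88): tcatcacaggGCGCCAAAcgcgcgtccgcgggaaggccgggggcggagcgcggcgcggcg
TIPIN (chr15:66356702-66356761, minus strand, -76 to -17): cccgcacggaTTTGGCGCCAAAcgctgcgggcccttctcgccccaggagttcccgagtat
UHRF1 (chr19:4909974-4910033, plus strand, -170 to -111): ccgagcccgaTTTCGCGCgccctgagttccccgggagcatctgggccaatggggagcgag
UHRF1, another start (chr19:4909477-4909500, plus strand, -24 to -1): ccgagttttcGCGGGAAAaaaatc

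In GINS2, POLA1 and the second UHRF1 stretch the letters are on the opposite strand, and in TIPIN the palindrome holds a match on each. Only matches that end before the start are printed. A second match of MCM3, whose first base is at -4, is therefore not shown. Those of CLSPN and POLE2 (first base at -5), GINS1 (5) and CDC6 (7) are left out for the same reason. The 23 genes with a match had a median log2 fold change of -0.78 for erastin-R and -1.12 for RSL3-R, and the 20 genes with a promoter but no match -0.68 and -1.04, given as a description only.

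**Figure D3:**
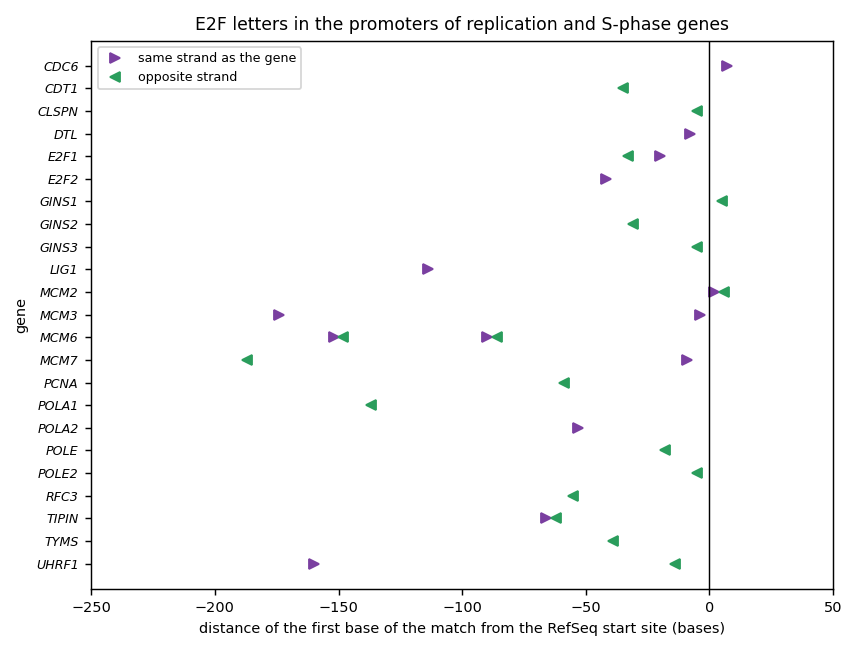
Position of the first base of each E2F match relative to the RefSeq start (horizontal axis, bases) in the 23 genes that have one (rows), with right-pointing marks for the gene's strand and left-pointing marks for the opposite strand. Of 32 matches, 25 lie within 100 bases before to 50 after the start.

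Of the regulators of the S-phase programme, CCNE2 and E2F2 had the largest falls of the 50 genes, CCNE2 in erastin-R and E2F2 in RSL3-R cells. CCNE2, which encodes cyclin E2, an activator of CDK2 at the start of S phase, was at 18.8, 22.0 and 20.4 CPM (counts scaled to 1000000 per library after TMM) in the 3 vehicle libraries, 6.02, 3.69 and 4.56 in erastin-R and 4.58, 4.16 and 5.08 in RSL3-R libraries. The treated libraries lay well below the vehicle libraries and overlapped each other. The log2 fold change was -2.09 ± 0.16 (SE) for erastin-R (edgeR adjusted p = 1.19e-07) and -2.14 ± 0.16 for RSL3-R (adjusted p = 1.02e-07). The count is uncertain because 37.0% of the exon length of CCNE2 overlaps INTS8 on the opposite strand, and the sources used here do not state strand-specific counting. E2F2, an activating member of the E2F family, was low throughout, at 11.7, 10.7 and 10.8 CPM in vehicle, 2.62, 2.74 and 3.34 in erastin-R and 2.51, 1.49 and 2.63 in RSL3-R libraries, the lowest of which held 24 counts. All 6 treated libraries stood below all vehicle libraries, by a log2 fold change of -1.93 ± 0.18 for erastin-R (adjusted p = 1.06e-06) and -2.32 ± 0.19 for RSL3-R (adjusted p = 3.02e-07). E2F1, another activating E2F, fell by 0.38 on the log2 scale in erastin-R cells (adjusted p = 0.006) and by 1.12 in RSL3-R cells (adjusted p = 1.19e-06). DTL, the substrate receptor through which CDT1 is degraded in S phase, fell by 0.60 and 0.76.

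Among the licensing genes, 4 of 5 fell in erastin-R cells and all 5 in RSL3-R cells, against 26.8% and 24.9% of all genes. ORC1 and CDC6 differed in which survivor group was lower. ORC1, the subunit of the origin recognition complex that is made anew in each cycle, was at 20.1, 21.6 and 22.1 CPM in vehicle, 13.8, 13.5 and 11.9 in erastin-R and 5.74, 5.53 and 5.79 in RSL3-R libraries. The 3 groups formed 3 separate levels, with RSL3-R lowest. It was 1.63-fold lower in erastin-R (adjusted p = 5.39e-05) and 3.74-fold lower in RSL3-R cells (adjusted p = 1.05e-08). CDC6, the ATPase that joins ORC to load the helicase, showed the other order, with 96.4, 100.4 and 102 CPM in vehicle, 34.4, 31.3 and 25.3 in erastin-R and 44.5, 46.4 and 46.6 in RSL3-R libraries. Here erastin-R libraries were lowest, and no groups overlapped. CDC6 was 3.27-fold lower in erastin-R (adjusted p = 6.98e-09) and 2.17-fold lower in RSL3-R cells (adjusted p = 2.46e-07). CDT1, which brings the helicase to the origin, had -0.43 for erastin-R and -1.06 for RSL3-R on the log2 scale, and ORC6 had -0.50 and -1.02. ORC2, a core ORC subunit, was at 0.00 ± 0.08 in erastin-R cells (adjusted p = 0.981, and -0.06, adjusted p = 0.53, without erastin-R replicate 1) and fell by 0.32 in RSL3-R cells (adjusted p = 0.0038).

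All 6 subunits of the MCM2-7 helicase fell in both survivor groups, but by unequal amounts. MCM3 was at 294, 299.8 and 292 CPM in vehicle, 115, 122 and 120.0 in erastin-R and 113, 114 and 117 in RSL3-R libraries. The survivor groups overlapped each other and were well apart from vehicle, with log2 fold changes of -1.31 ± 0.05 (adjusted p = 6.45e-10) and -1.36 ± 0.05 (adjusted p = 2.63e-10). MCM4 fell by 1.25 and 1.29 on the log2 scale, MCM5 by 0.80 and 0.90, MCM2 by 0.66 and 0.89, MCM6 by 0.53 and 0.48, and MCM7 by 0.35 and 0.42, the first value being erastin-R and the second RSL3-R. In each library the subunits could be set against each other without scaling. The count of MCM3 was 0.851 to 0.907 times that of MCM7 in the vehicle libraries, 0.443 to 0.467 times in erastin-R and 0.449 to 0.463 times in RSL3-R libraries. This pair was chosen after its values were seen and was not tested as a ratio. The 6 proteins form 1 ring in equal numbers, whereas their mRNAs did not change in equal proportion.

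The 6 genes of helicase activation all fell in both groups, where 26.8% (erastin-R) and 24.9% (RSL3-R) of all genes did. They had the lowest median of the 9 roles in erastin-R cells (log2 fold change -1.33), with -1.52 for RSL3-R. MCM10, which helps to convert the loaded helicase into its active form, was at 112, 110.2 and 104 CPM in vehicle, 35, 29.6 and 28.6 in erastin-R and 34.1, 40.5 and 39.8 in RSL3-R libraries. It was 3.49-fold lower in erastin-R (adjusted p = 3.41e-09) and 2.85-fold lower in RSL3-R cells (adjusted p = 1.13e-08), and the survivor groups overlapped. The 4 GINS subunits, which join CDC45 and the helicase in the moving CMG complex, did not follow 1 pattern. GINS1 was at 48.3, 45 and 51.7 CPM in vehicle, 27.6, 32.6 and 35.4 in erastin-R and 18.1, 15.7 and 15.1 in RSL3-R libraries, a log2 fold change of -0.60 ± 0.10 (adjusted p = 0.000183) and -1.57 ± 0.11 (adjusted p = 4.33e-08). GINS2 was at 16.8, 14.9 and 15.9 CPM in vehicle, 6.49, 5.73 and 7.48 in erastin-R and 6.12, 5.10 and 4.03 in RSL3-R libraries, a log2 fold change of -1.27 ± 0.15 (adjusted p = 8.14e-06) and -1.64 ± 0.15 (adjusted p = 1.11e-06). For GINS1 the RSL3-R libraries lay below the erastin-R libraries, and for GINS2 the 2 overlapped. For GINS3 the log2 fold change was -1.42 (erastin-R) and -0.81 (RSL3-R), for GINS4 -1.39 and -1.54, and for CDC45 -0.87 and -1.29. The count ratio of GINS1 to GINS3, a pair chosen after its values were seen, was 4.34 to 5.34 in vehicle, 6.19 to 10.04 in erastin-R and 2.31 to 3.54 in RSL3-R libraries.

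**Figure D4:**
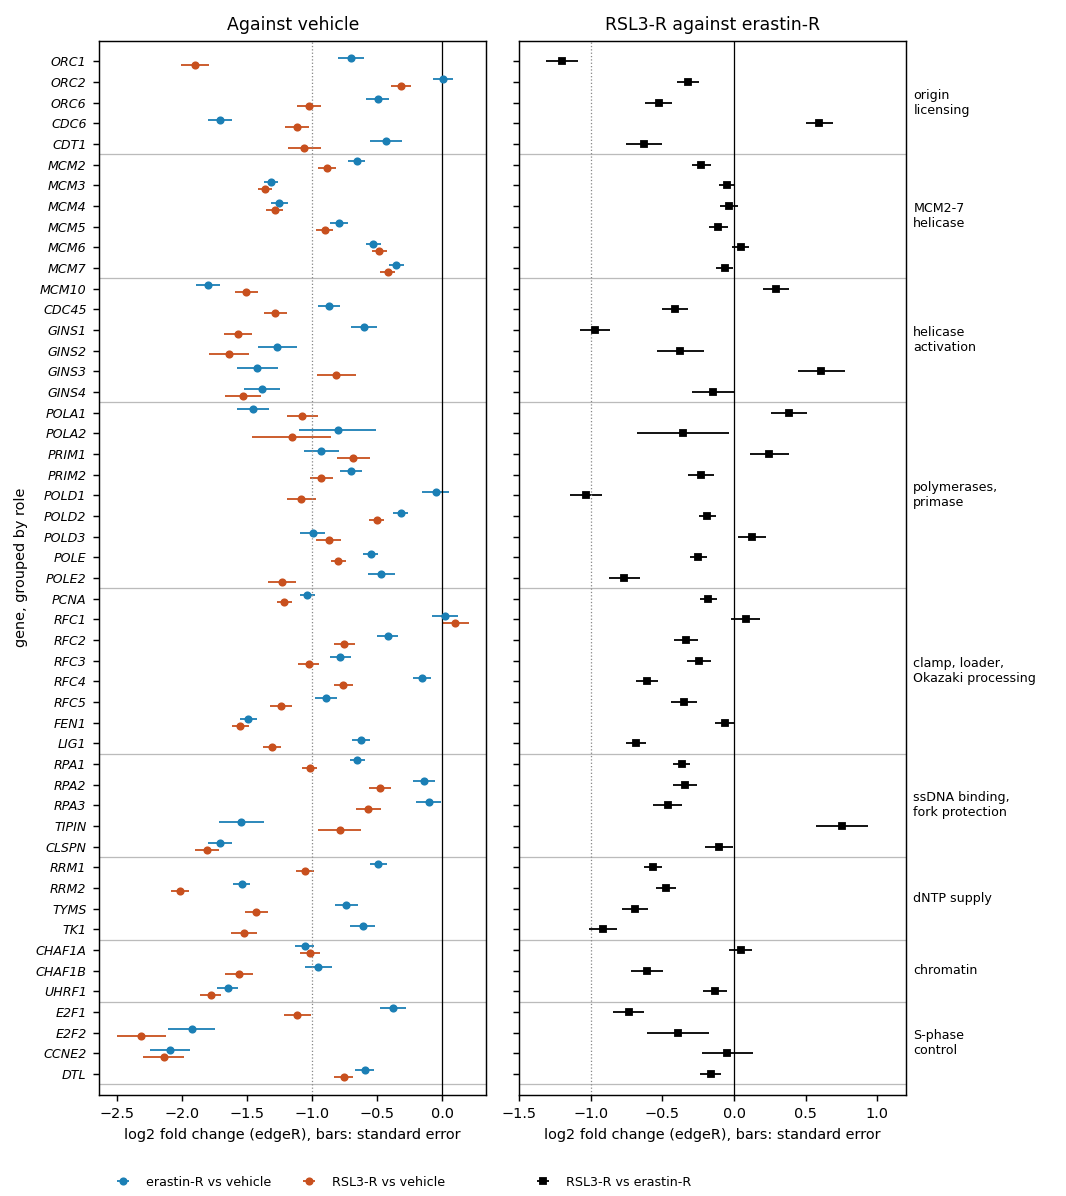
Log2 fold change from edgeR (horizontal axis, bars 1 standard error) of the 50 genes by role (rows), against vehicle on the left (erastin-R blue, RSL3-R orange) and for RSL3-R against erastin-R on the right, with dotted lines at -1. Nearly all points on the left lie below 0 except ORC2 and RFC1, and on the right ORC1 and POLD1 lie past -1 while CDC6, GINS3 and TIPIN lie above 0.5.

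Of the polymerase and primase genes, 8 of 9 fell in erastin-R cells and all 9 in RSL3-R cells. Among all genes these shares were 26.8% and 24.9%. POLA1, the catalytic subunit of the polymerase that starts each new strand together with primase, was at 47.3, 48.2 and 48.7 CPM in vehicle, 21.0, 14.1 and 17.3 in erastin-R and 20.9, 21.8 and 25.6 in RSL3-R libraries. It fell by 1.46 ± 0.12 on the log2 scale in erastin-R (adjusted p = 3.09e-07) and by 1.08 ± 0.12 in RSL3-R cells (adjusted p = 5.22e-06), and both survivor groups were apart from vehicle. POLE2, a subunit of the leading-strand polymerase, was at 33.0, 38.9 and 38.3 CPM in vehicle, 27.9, 27.4 and 24.3 in erastin-R and 14.1, 15.1 and 17.6 in RSL3-R libraries. It formed 3 separate levels, with log2 fold changes of -0.47 ± 0.10 (adjusted p = 0.00146) and -1.23 ± 0.11 (adjusted p = 4.88e-07). POLE, its catalytic subunit, fell by 0.55 and 0.80.

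POLD1, the catalytic subunit of the lagging-strand polymerase, was chosen for closer description after its values were seen. It was at 94.0, 88.7 and 80.9 CPM in vehicle, 68.2, 95.4 and 90.8 in erastin-R and 43.5, 41.6 and 39.2 in RSL3-R libraries. Erastin-R overlapped vehicle (log2 fold change -0.05 ± 0.11, adjusted p = 0.703, and 0.08, adjusted p = 0.282, without erastin-R replicate 1), whereas the RSL3-R libraries lay below all others, with a log2 fold change of -1.08 ± 0.11 (adjusted p = 2.29e-06). The accessory subunits of the same enzyme followed other patterns, POLD2 with -0.32 and -0.50 and POLD3 with -0.998 and -0.874. PRIM1 and PRIM2, the primase subunits, had -0.93 and -0.68 and -0.70 and -0.93. Of their 50-base words, 11.9% (PRIM1) and 15.3% (PRIM2) also occur in transcripts of other genes. Part of their reads could thus have been lost or split. POLA2, the partner of POLA1, was the least certain of the 50, with 31 to 152 counts per library and 35.1% of its exon length shared with another annotated gene on the same strand. It had a log2 fold change of -0.80 ± 0.30 for erastin-R (adjusted p = 0.0333) and -1.16 ± 0.30 for RSL3-R (adjusted p = 0.00615). The erastin-R call was lost in 4 of 17 alternatives, among them those without vehicle replicate 1 and without erastin-R replicate 2, with adjusted p from 0.000309 to 0.218.

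The clamp, clamp loader and Okazaki fragment genes held both strong falls and RFC1, which passed the test in neither comparison with vehicle when all libraries were used. PCNA, the sliding clamp and by FPKM the most abundant of the 50 genes in vehicle cells (117 FPKM), fell by 1.04 ± 0.06 on the log2 scale in erastin-R (adjusted p = 7.46e-09) and by 1.22 ± 0.06 in RSL3-R cells (adjusted p = 1.25e-09). FEN1, the nuclease that trims Okazaki fragments, was at 149.8, 140.4 and 139 CPM in vehicle, 53.3, 47.7 and 51.7 in erastin-R and 48.4, 48.5 and 49.2 in RSL3-R libraries. It was 2.81-fold lower in erastin-R (adjusted p = 9.38e-10) and 2.94-fold lower in RSL3-R cells (adjusted p = 4.33e-10), and the survivor groups overlapped. LIG1, which seals the fragments, fell by 0.63 and 1.31. RFC1, the large subunit of the clamp loader, which was chosen for closer description after its values were seen, was at 93.1, 97.1 and 102 CPM in vehicle, 120.1, 86.5 and 89.2 in erastin-R and 109, 102 and 102 in RSL3-R libraries. It did not pass the test in either group (log2 fold change 0.02 ± 0.10, adjusted p = 0.881, and 0.10 ± 0.10, adjusted p = 0.438). All 3 RSL3-R libraries lay above all 3 vehicle libraries, as for 30.4% of all genes, but only just (log2 CPM of at least 6.671 against at most 6.668). The highest value was that of erastin-R replicate 1. Without that library RFC1 was called lower in erastin-R than in vehicle cells (-0.15, adjusted p = 0.0284). It was then also called higher in RSL3-R than in erastin-R cells (0.25, adjusted p = 0.000579). Its sign against vehicle changed in 4 of 17 alternatives for erastin-R and in none for RSL3-R. The 4 small subunits did pass in RSL3-R cells, with falls of 0.75 (RFC2), 1.03 (RFC3), 0.76 (RFC4) and 1.24 (RFC5) on the log2 scale. In erastin-R cells RFC2, RFC3 and RFC5 fell by 0.42, 0.78 and 0.89, and RFC4 had a log2 fold change of -0.16 (adjusted p = 0.0827), or -0.21 (adjusted p = 0.00931) without erastin-R replicate 1.

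Of the genes for single-strand binding and fork protection, 3 of 5 fell in erastin-R and 5 of 5 in RSL3-R libraries, CLSPN most in each. The shares of all genes called lower were 26.8% and 24.9%. CLSPN encodes claspin, which carries the ATR signal to CHEK1 at the fork. It was at 56.9, 56.1 and 63.0 CPM in vehicle, 18.9, 15.7 and 19.2 in erastin-R and 16.5, 16.8 and 16.8 in RSL3-R libraries. This was a 3.27-fold fall in erastin-R (adjusted p = 6.14e-09) and a 3.51-fold fall in RSL3-R cells (adjusted p = 2.56e-09), with overlap of the survivor groups. TIPIN, the partner of TIMELESS at the fork, was at 13.2, 14.1 and 13.9 CPM in vehicle, 5.96, 3.12 and 4.98 in erastin-R and 8.32, 7.46 and 8.07 in RSL3-R libraries. Here erastin-R was the lower survivor group, with a log2 fold change of -1.55 ± 0.17 (adjusted p = 5.67e-06) against -0.79 ± 0.16 in RSL3-R cells (adjusted p = 0.00127). Of its exon length 21.0% overlaps a processed pseudogene on the same strand, which had no counts, so reads there could have been lost. The single-strand binding protein RPA1 fell by 0.65 and 1.02. Its partners RPA2 and RPA3 had log2 fold changes of -0.14 (adjusted p = 0.166) and -0.10 (adjusted p = 0.378) in erastin-R cells and fell by 0.48 and 0.57 in RSL3-R cells. Without erastin-R replicate 1 the erastin-R value of RPA2 was -0.20 (adjusted p = 0.0341) and that of RPA3 was 0.0030 (adjusted p = 0.978).

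The 4 genes of deoxynucleotide supply all fell at least 2-fold in RSL3-R cells, and RRM2 alone did so in erastin-R cells. Falls of that size were called for 4.08% of all genes in RSL3-R and 6.66% in erastin-R cells. RRM2, the small subunit of ribonucleotide reductase whose level follows S phase, was at 90.0, 91.2 and 89.1 CPM in vehicle, 31.8, 30.1 and 30.8 in erastin-R and 21.1, 22.5 and 23.1 in RSL3-R libraries. The 3 levels were separate, at 2.91-fold below vehicle in erastin-R (adjusted p = 9.38e-10) and 4.05-fold below in RSL3-R cells (adjusted p = 9.09e-11). Of its exon length 20.2% overlaps another annotated gene on the same strand with at most 38 counts, so part of its reads could have been lost or split. RRM1, the large subunit, fell by 0.49 and 1.06 on the log2 scale, so that the count of RRM2 was 0.341 to 0.380 times that of RRM1 in vehicle, 0.167 to 0.179 times in erastin-R and 0.174 to 0.199 times in RSL3-R libraries (a pair chosen after its values were seen). TYMS, which makes thymidylate, fell by 0.74 and 1.43, with 39.1% of its exon length overlapped by ENOSF1 on the opposite strand. TK1, the thymidine kinase of S phase, fell by 0.61 and 1.53.

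The chromatin genes all fell in both groups, as did 26.8% (erastin-R) and 24.9% (RSL3-R) of all genes tested. CHAF1A and CHAF1B are subunits of the assembly factor that places histones behind the fork. CHAF1B was at 25.5, 24 and 23.9 CPM in vehicle, 12.0, 13.4 and 12.5 in erastin-R and 8.45, 9.07 and 7.36 in RSL3-R libraries, 3 separate levels with log2 fold changes of -0.95 ± 0.10 (adjusted p = 3.75e-06) and -1.56 ± 0.11 (adjusted p = 5.28e-08). CHAF1A fell by 1.06 and 1.01. UHRF1, which brings maintenance DNA methylation to newly copied DNA, was at 192, 177 and 169 CPM in vehicle, 51.6, 55.5 and 64.1 in erastin-R and 52.4, 49.9 and 54.1 in RSL3-R libraries. The treated libraries overlapped each other far below the vehicle libraries, a 3.14-fold fall in erastin-R (adjusted p = 3.36e-09) and a 3.44-fold fall in RSL3-R cells (adjusted p = 1.11e-09). Of the 50-base words of UHRF1, 20.7% also occur in a processed pseudogene with at most 277 counts, so part of its reads could have been lost or split.

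**Figure D5:**
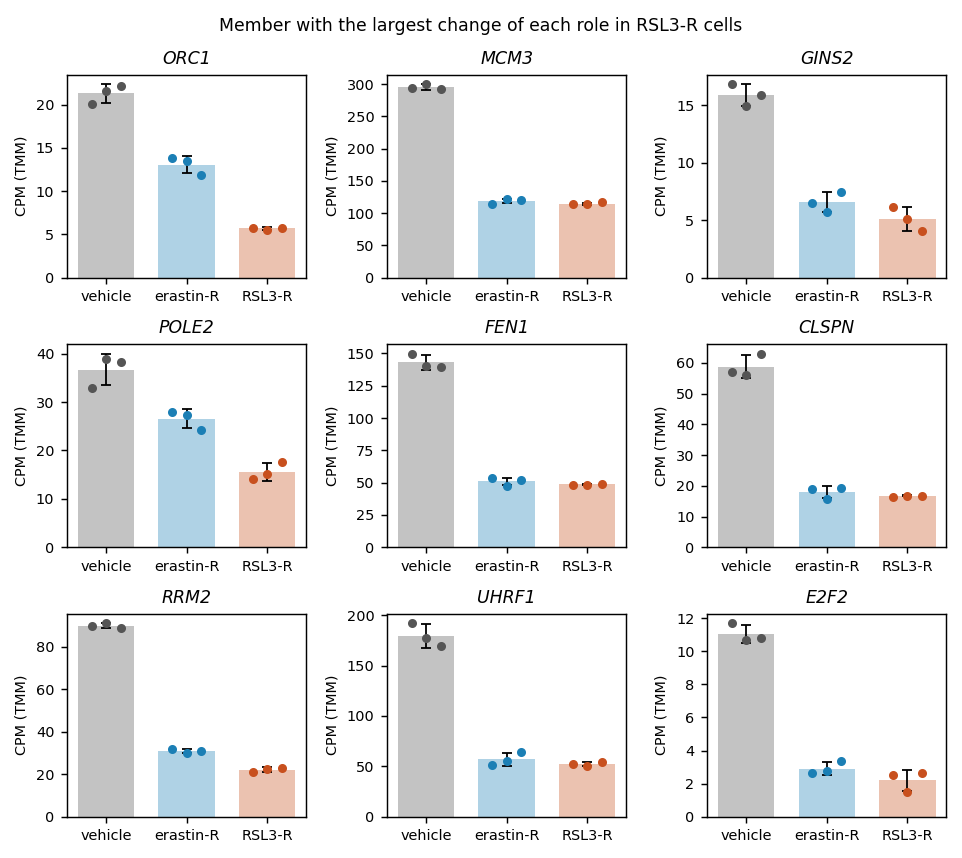
CPM (vertical axes, TMM-scaled, from 0) of the gene with the largest change of each role in RSL3-R cells, with points for the 3 libraries of a group, bars for the mean and whiskers for the SD. All treated points lie below all vehicle points in the 9 panels, and ORC1, POLE2 and RRM2 show 3 separate levels.

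RSL3-R cells were then compared with erastin-R cells directly, to ask whether the 2 survivor groups differed in these genes. Of the 50 genes, 27 were lower in RSL3-R cells and 5 were higher, where 26.9% and 22.3% of all genes tested were called lower and higher, and 18 did not pass. The median log2 fold change was -0.25, against -0.02 over all genes. At least 2-fold differences were called for 2 genes, both lower in RSL3-R cells, against 3.48% of all genes lower and 6.86% higher. These were ORC1 (log2 fold change -1.20 ± 0.11, adjusted p = 1.82e-06) and POLD1 (-1.03 ± 0.11, adjusted p = 4.95e-06). Without erastin-R replicate 1 the count was 4, with GINS1 at -1.07 and TK1 at -1.04 past the threshold as well, and it was 1 without erastin-R replicate 2, erastin-R replicate 3 or RSL3-R replicate 3. All 4 genes of deoxynucleotide supply were lower in RSL3-R cells, from -0.48 (RRM2) to -0.91 (TK1), as were 6 of 8 genes of the clamp, loader and Okazaki role, led by LIG1 (-0.69, adjusted p = 3.26e-06) and RFC4 (-0.61, adjusted p = 1.76e-05). The calls of RFC3 and PCNA in this role were lost in 8 and 7 of 17 alternatives, and under upper quartile scaling 21 of the 50 genes were lower and 6 higher.

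The genes higher in RSL3-R than in erastin-R cells were TIPIN (log2 fold change 0.76 ± 0.18, adjusted p = 0.00349), GINS3 (0.61 ± 0.16, adjusted p = 0.00708), CDC6 (0.59 ± 0.09, adjusted p = 0.000146), POLA1 (0.38 ± 0.12, adjusted p = 0.021) and MCM10 (0.29 ± 0.09, adjusted p = 0.0163). The libraries of the 2 groups did not overlap for TIPIN, GINS3 and CDC6. For POLA1 and MCM10 they did, and these calls were each lost in 3 of 17 alternatives. RSL3-R libraries lay above erastin-R libraries without overlap for 3 of the 50 genes and below them for 27. Over all genes tested the shares were 25.6% and 29.5%. The number of genes called higher was 7 without erastin-R replicate 1 and 3 without erastin-R replicate 2 or 3. Of the helicase subunits, only MCM2 passed (-0.23, adjusted p = 0.0121), a call lost in 4 of 17 alternatives with an adjusted p of up to 0.171, and the other 5 had log2 fold changes from -0.11 to 0.05 with standard errors of 0.05 to 0.07. CCNE2 had -0.05 ± 0.18 (adjusted p = 0.845) and changed sign under 3 alternatives. Without erastin-R replicate 1, MCM7 (-0.12, adjusted p = 0.0303), UHRF1 (-0.20, adjusted p = 0.0155), POLA2 (-0.61, adjusted p = 0.0496) and POLD3 (0.21, adjusted p = 0.0471) also passed, and PRIM2 did not (-0.23, adjusted p = 0.0438, with all libraries and -0.14, adjusted p = 0.118, without it).

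Outside the 50, 66 other genes of the pathway in 4 lists were examined, and all 66 passed the filter. In erastin-R cells 42 fell and 9 rose, with a median log2 fold change of -0.40, and in RSL3-R cells 50 fell and 9 rose, with a median of -0.76. These are 63.6% lower and 13.6% higher in erastin-R cells, against 26.8% and 27.1% of all genes tested, and 75.8% lower and 13.6% higher in RSL3-R cells, against 24.9% and 23.8%. Of 25 other replication factors, 18 fell and 1 rose in erastin-R cells and 22 fell and 1 rose in RSL3-R cells. DSCC1, of an alternative clamp loader, had the largest fall of this list in erastin-R cells (-1.20, adjusted p = 4.1e-07), and PCLAF, a PCNA-binding factor, the largest in RSL3-R cells (-1.58, adjusted p = 6.6e-07). The member that rose in both was POLD4, the smallest subunit of the lagging-strand polymerase, with log2 fold changes of 0.997 ± 0.13 and 0.600 ± 0.13. Of 10 other nucleotide supply and histone chaperone genes, 7 fell and 1 rose in erastin-R cells and 9 fell and 1 rose in RSL3-R cells. These included SAMHD1 (-1.12 and -0.89), which degrades deoxynucleotides. RRM2B, the reductase subunit used outside S phase, rose by 0.26 and 0.28.

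Among 22 genes of E2F, RB and G1/S control, 14 fell and 4 rose in erastin-R cells and 14 fell and 5 rose in RSL3-R cells. These are 63.6% lower and 18.2% higher in erastin-R cells, against 26.8% and 27.1% of all genes tested. In RSL3-R cells they are 63.6% and 22.7%, against 24.9% and 23.8%, so the share that rose there was near that of all genes. The largest falls were those of RBL1, an RB family member that is itself expressed in S phase (-1.62 and -1.03), MYBL2 (-1.59 and -1.83), E2F8, a repressor of the E2F family (-1.22 and -1.77), and the CDK2-activating phosphatase CDC25A (-0.88 and -1.74). Chosen after their values were seen, 4 further genes of this list are given. The RB family member RBL2, known to be abundant in resting cells, rose by 0.61 and 0.67, and FBXW7, a ubiquitin ligase subunit that targets cyclin E, by 0.83 and 0.49. The CDK inhibitor CDKN1A did not pass the test in either group, at -0.14 (adjusted p = 0.21) and 0.21 (adjusted p = 0.072). CDKN1B rose by 0.31 in erastin-R cells and fell by 0.21 in RSL3-R cells. Of 9 S-phase checkpoint genes, 3 fell and 3 rose in erastin-R cells (33.3% each, near the shares of all genes). In RSL3-R cells 5 fell and 2 rose (55.6% and 22.2%, the latter again near the share of all genes). ETAA1, an activator of the ATR kinase, rose by 0.66 and 0.81, and CHEK1, the kinase that ATR activates, fell by 0.44 and 0.81, while WEE1, which restrains CDK activity, rose by 0.25 in erastin-R cells and fell by 0.63 in RSL3-R cells.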

How the data were processed

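Poly(A)-selected RNA from MDA-MB-231 cells was measured in 9 libraries, 3 per group, and groups were taken from the treatment labels. The authors deposited 1 count per gene from uniquely mapped exonic reads, not normalized, and FPKM values made from them, which were used for levels only. HISAT2 2.0.5 and featureCounts 1.5.0-p3 are named in the submitters' processing notes. The coordinates and exon lengths of the 50 genes equalled those of GENCODE release 29 (GRCh38), and strand-specific counting is not stated in the sources used here.

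The main test was the quasi-likelihood test of edgeR 4.0.16 in R 4.3.3 (filterByExpr, TMM scaling, 1 model of 9 libraries, no covariate), with Benjamini-Hochberg adjustment over 16188 genes. Calls needed an adjusted p under 0.05, and where stated a log2 fold change of at least 1. The code was tried on counts simulated from the same kind of model, which cannot show how the test does on these libraries. The study's methods name an unadjusted p with a fold change above 2. The description of its heat map names an adjusted p with a 2-fold change. The latter thresholds were used for the counts of at least 2-fold changes only, and other calls needed the adjusted p alone. Alternatives were other scalings, DESeq2 1.42.0, limma 3.58.1 after quantile normalization, no filter, only the 2 groups compared, a replicate block and each library left out.

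The members, lists and tests were chosen with earlier results of these data known. Values in every library are given for the 10 members with the largest change in each comparison with vehicle among those called and without overlap, and for the largest of each role. Other lists are given by counts with up to 4 examples, and in the E2F list 4 more. A fold change of these data carries counting error and the spread between libraries. Replicate numbers did not pair the libraries. A single result that this rule covers is not reported here.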

Additional observations from a re-analysis of the deposited data

Results flagged for a closer look

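The effect of treatment against vehicle differed between RSL3-R and erastin-R cells by at least 2-fold for 2 of the 50 genes in the direct test of that difference. Over all genes tested, 3.48% were called lower and 6.86% higher by that much, so the number is near the share of all genes. For ORC1 the log2 fold change of RSL3-R against erastin-R cells was -1.20 (edgeR adjusted p = 1.82e-06). All 3 RSL3-R libraries lay below all 3 erastin-R libraries, as for 29.5% of all genes. The fold change ranged from -1.27 to -1.10 over 17 alternatives. For POLD1 it was -1.03 (adjusted p = 4.95e-06), again without overlap, and it ranged from -1.17 to -0.91. Erastin-R replicate 1 was 26.8% below the mean of the other erastin-R libraries for POLD1 and 8.78% above it for ORC1. No group had more than 3 libraries, so single libraries were not tested as outliers.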

How the results depend on the processing

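Each of the 12 counts and medians of the 50 genes was recomputed under 17 alternatives. The medians of the 3 comparisons stayed below 0 throughout, and the counts have no sign that could change. Under upper quartile scaling the medians were -0.81 for erastin-R and -1.03 for RSL3-R against vehicle and -0.15 between them. This scaling raised the median of all genes by 0.10 in the last comparison, and the median of the 50 genes relative to it was -0.22 with either scaling. Quantile normalization with limma gave -1.03 and -0.19 for the last 2, and a model of only the 2 groups compared gave -0.21 for RSL3-R against erastin-R cells. Under each of these 3 alternatives 1 gene passed the 2-fold threshold in that comparison, where 2 did in the reported analysis. Leaving out each library in turn gave 43 to 47 genes lower in erastin-R cells, 16 to 20 past 2-fold and medians of -0.78 to -0.74. In RSL3-R cells it gave 49 lower, 26 to 32 past 2-fold and medians of -1.13 to -1.03. Between the survivor groups it gave 23 to 29 lower, 3 to 7 higher, 1 to 4 past 2-fold and medians of -0.28 to -0.20. In the comparison of the survivor groups, upper quartile scaling raised the median of all genes by 0.10 and quantile normalization by 0.0037. The sign of the difference between these groups changed in at least 1 alternative for 8 of the 50 genes. Each had a log2 fold change within 0.11 of 0, where the sign carries little. Among these were MCM3 (0.052 and 0.043) and FEN1 (0.037 and 0.050) under upper quartile scaling and quantile normalization, and CCNE2 under upper quartile scaling (0.053), without erastin-R replicate 1 (0.16) and without RSL3-R replicate 2 (0.022). None of the changed signs between these groups passed the test. The call of PRIM2 between the survivor groups was lost in 14 of 17 alternatives. With the replicate block, 44 genes were lower for erastin-R and 49 for RSL3-R, with 18 and 32 past 2-fold. The numbers did not pair the libraries: the mean correlation of deviations from the group means was -0.0049 over 9 pairs with the same number and 0.0026 over 18 other pairs. Depth limited POLA2 and E2F2 most, with 24 to 196 counts per library.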
